A study of Homo sapiens with 6 samples.

Results

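CRYAA and 5 other genes of the small heat shock protein group, CRYAB, HSPB1, HSPB6, HSPB8 and HSPB11, were followed in HepG2 cells given TGFβ. The members are the 6 rows of the deposited table, out of 57773, that carry these gene names. They were chosen by gene family, and partly on the read counts of these same cultures: CRYAA was taken because its counts were higher with TGFβ than with vehicle, and the differences of the others were known as well. The difference between TGFβ and vehicle in the 6 genes is therefore given as a description. The members went through the fit over all genes, and which of them passed its threshold is stated without a p-value and is not evidence for their difference. HepG2 is an established line from a human hepatocellular carcinoma. RNA was sequenced from 3 vehicle cultures and from 3 cultures given recombinant human TGFβ1 at 5 ng/mL, all collected after 3 h. All cultures were plated the day before and came from cells of a passage under 20, and the study's methods place both arms of the treatment in medium without serum. Nothing in the labels says how far apart the cultures were handled, so the spread between them may be partly technical.

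Small heat shock proteins hold unfolding proteins in a soluble state without using ATP, and hand them on to the HSP70 chaperones for refolding. The classical ones share a conserved α-crystallin domain and assemble into oligomers. CRYAA and CRYAB encode the α-crystallins, the main soluble proteins of the eye lens, and CRYAB is also abundant in heart and skeletal muscle. HSPB1 is the widely expressed, stress-inducible member and binds actin. HSPB6 is a muscle member, HSPB8 works with the co-chaperone BAG3 in chaperone-assisted autophagy, and HSPB11, named IFT25 in present annotations, is a subunit of the intraflagellar transport B complex of cilia and lacks the usual chaperone role. Heat shock factor HSF1 drives stress-inducible chaperone genes through heat shock elements in their promoters.

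CRYAA (ENSG00000160202) occupies chr21:44589118-44592915 of hg19 on the plus strand, and its canonical transcript in GENCODE has 3 exons. No other gene of the table lies within 5000 bp of it, so its reads are not shared with a listed neighbor. HSPB1 (ENSG00000106211) occupies chr7:75931861-75933612 and HSPB8 (ENSG00000152137) chr12:119616447-119658936, both on the plus strand. CRYAB (ENSG00000109846) occupies chr11:111779289-111794446, HSPB6 (ENSG00000004776) chr19:36245469-36248980 and HSPB11 (ENSG00000081870) chr1:54382247-54411602, all on the minus strand. The members thus lie on 6 different chromosomes.

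Promoter windows of RefSeq, reaching from 250 bases before to 50 bases after a start site, were matched to 5 of the 6 members. CRYAB is without an entry. The windows come from a table on GRCh38.p14 and were found letter for letter in GRCh37, whose coordinates are given. The 4 promoters below are shown to set CRYAA beside the members whose windows hold a heat shock element. Each is printed from 250 bases before the start site through its first 20 transcribed bases. Capitals mark any of 4 motifs. The first is the core of a heat shock element, GAANNTTC or TTCNNGAA. The second is a SMAD core, written CAGAC on one strand. The third is a TATA box, written TATAAA and also accepted in the form that the CRYAA promoter holds. The fourth is a MAF site, written TGCTGAC on one strand. The motifs were chosen after the CRYAA sequence had been read.
CRYAA promoter, chr21:44588868-44589137, plus strand: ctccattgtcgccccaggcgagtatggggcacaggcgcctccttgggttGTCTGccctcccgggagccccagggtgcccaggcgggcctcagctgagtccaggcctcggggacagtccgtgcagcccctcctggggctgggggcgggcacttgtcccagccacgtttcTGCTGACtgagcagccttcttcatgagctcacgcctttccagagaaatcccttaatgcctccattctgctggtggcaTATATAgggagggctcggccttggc
HSPB1 promoter, chr7:75931740-75932009, plus strand: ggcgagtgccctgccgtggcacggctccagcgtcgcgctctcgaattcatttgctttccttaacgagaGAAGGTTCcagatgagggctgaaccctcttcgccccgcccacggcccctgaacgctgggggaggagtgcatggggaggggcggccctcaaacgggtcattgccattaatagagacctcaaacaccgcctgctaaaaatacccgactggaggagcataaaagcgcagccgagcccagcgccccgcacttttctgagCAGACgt
HSPB6 promoter, chr19:36247911-36248180, minus strand: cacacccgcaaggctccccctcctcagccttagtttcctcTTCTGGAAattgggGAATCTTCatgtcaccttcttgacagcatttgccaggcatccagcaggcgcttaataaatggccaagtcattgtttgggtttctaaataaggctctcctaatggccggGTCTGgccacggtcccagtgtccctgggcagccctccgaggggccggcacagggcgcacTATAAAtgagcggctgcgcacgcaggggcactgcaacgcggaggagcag
HSPB8 promoter, chr12:119616486-119616755, plus strand: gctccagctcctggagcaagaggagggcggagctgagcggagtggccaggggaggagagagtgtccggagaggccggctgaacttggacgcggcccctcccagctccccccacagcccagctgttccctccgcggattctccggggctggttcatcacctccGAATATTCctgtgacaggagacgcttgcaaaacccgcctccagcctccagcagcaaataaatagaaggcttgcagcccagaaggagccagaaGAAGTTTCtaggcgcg

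The CRYAA window upstream of its deposited start held 0 heat shock element cores, and so did the window of a start site 1228 bases downstream. HSPB1 held 1 (GAAGGTTC, first base at -182 from the start site), HSPB6 held 2 and HSPB8 held 2, and both windows of HSPB11 held 0. Over all 35116 RefSeq windows of this length, 13.5% held such a core. The CRYAA window held 1 SMAD core at -201, a feature of 45.3% of all windows. It also held TATATA, the spelling accepted because CRYAA holds it, with its first base at -5. The TATAAA of HSPB6 began further upstream, at -29. Either form was held on the gene's strand by 10.2% of windows. Whether TATATA so close to the CRYAA start site acts as a TATA box was not tested. The CRYAA window held a MAF site at -82, where 4.19% of windows held one. The CRYAA window of the downstream start site held a MAF site as well, at -191, and a SMAD core at -93. Every motif but the TATA box was searched on both strands, and none of the 4 motifs overlapped another in these windows. MAF proteins are the transcription factors that drive crystallin genes in the lens. These matches describe the letters of the windows only.

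The cultures were deep, with 60815385 reads on genes in the shallowest and 100099136 in the deepest. Of the 57773 genes, 22747 had enough reads for testing, all 6 members among them, with between 7 and 7496 reads per culture. TGFβ and vehicle were compared with the quasi-likelihood test of edgeR on raw counts, and a gene was called at a false discovery rate (FDR) under 0.05 after Benjamini-Hochberg adjustment over all tested genes. Levels are CPM, the reads of a gene scaled to a common library size after TMM normalization. The treatment labels were checked on known early targets of TGFβ: SKIL, SMAD7 and PMEPA1 were all called higher, with log2 fold changes from 1.72 to 4.30. The markers of the labelled cell type were high in every library, with the summed level of 8 hepatocyte genes such as ALB between 35574 and 41456 CPM. In bulk RNA, a change in the share of cells that express a gene and a change per cell cannot be told apart.

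CRYAA had 3119, 2638 and 2160 reads in vehicle cultures 1, 2 and 3, and 7496, 6511 and 6220 reads in TGFβ cultures 1, 2 and 3. On the CPM scale these were 35.3, 31.8 and 35.1 with vehicle and 77.4, 80.9 and 85.3 with TGFβ. The lowest TGFβ culture thus lay far above the highest vehicle culture. The mean was 34.1 ± 1.95 CPM (SD, n = 3) with vehicle and 81.2 ± 3.99 CPM (SD, n = 3) with TGFβ, a fitted log2 fold change of 1.25 (standard error 0.08), or 2.38-fold. Within the numbered pairs of cultures the TGFβ to vehicle ratio was 2.19, 2.54 and 2.43, and pairs 1 and 2 each shared a sequencing lane. Ordered by the size of the rise, CRYAA stood at place 176 of the 707 genes called higher. Among the 253 of these that were at least as abundant with vehicle as CRYAA, it stood at place 14. Both places order CRYAA by the rise it was taken for, and the abundance limit is its own level. They are description only.

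**Figure D1:**
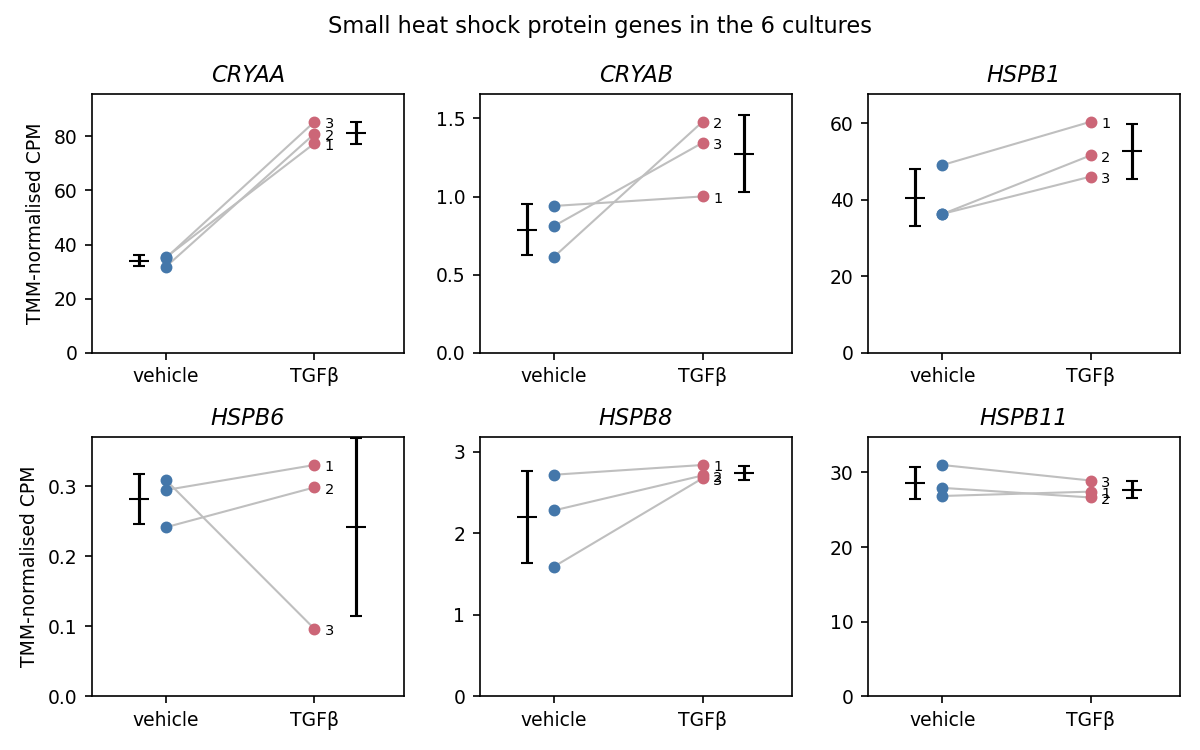
TMM-normalized CPM of each small heat shock protein gene (vertical axes, each from 0) in vehicle and TGFβ cultures, with grey lines joining cultures of the same number and black bars for the mean and SD of 3 cultures. CRYAA moved from 31.8 to 35.3 CPM with vehicle to 77.4 to 85.3 CPM with TGFβ, and the groups overlapped for HSPB1, HSPB6, HSPB8 and HSPB11.

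HSPB1, the abundant stress-inducible member, had 49.1, 36.3 and 36.3 CPM in vehicle cultures 1, 2 and 3, and 60.5, 51.7 and 46.1 CPM in TGFβ cultures 1, 2 and 3. Culture 1 was the highest of both groups, and vehicle culture 1 lay above TGFβ culture 3, so the groups overlapped. Within pairs the ratio was 1.23, 1.42 and 1.27. The fitted log2 fold change was 0.38 (standard error 0.14), and HSPB1 was not called. With the culture number as a block it was called higher at the same value, 0.38 (standard error 0.06), as were 8.08% of all tested genes in that fit. Without vehicle replicate 1 it was also called, with a log2 fold change of 0.53, as were 2.65% of all tested genes.

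CRYAB, the other α-crystallin, was nearly silent beside CRYAA. The vehicle cultures gave 83, 51 and 50 reads and the TGFβ cultures 97, 119 and 98 reads, or 0.940, 0.615 and 0.812 CPM against 1.00, 1.48 and 1.34 CPM. The groups did not overlap, but vehicle culture 1 and TGFβ culture 1 were close, and the ratio within pairs ran from 1.06 to 2.40. The log2 fold change was 0.69 (standard error 0.24), and CRYAB was not called, with or without the block. Its row in the table spans HSPB2 and parts of HSPB2-C11orf52 and C11orf52, for which log2 fold changes were -0.18, 0.32 and 0.30 and none was called, and reads on these shared bases cannot be assigned to one gene with certainty.

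HSPB8 had 2.72, 2.28 and 1.59 CPM with vehicle and 2.84, 2.71 and 2.68 CPM with TGFβ. The TGFβ cultures were close together, and vehicle culture 1 lay among them. Within pairs the ratio was 1.04, 1.19 and 1.68. Its log2 fold change was 0.31 (standard error 0.20) with all cultures and between 0.13 and 0.48 without single cultures. The lowest value came without vehicle replicate 3, whose 98 reads were the fewest for HSPB8. RP11-64B16.2, a gene that overlaps it, had between 79 and 154 reads and a fitted difference of -0.41 on the log2 scale (standard error 0.31).

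HSPB11 was the steadiest member, with 26.8, 27.9 and 31.0 CPM in vehicle cultures and 27.4, 26.6 and 28.9 CPM in TGFβ cultures. The groups overlapped, and the log2 fold change was -0.05 (standard error 0.08). HSPB6 was at the edge of detection with 26, 20 and 19 reads in vehicle cultures and 32, 24 and 7 reads in TGFβ cultures. TGFβ culture 3 stood apart from the others, and the log2 fold change of -0.19 (standard error 0.41) became 0.16 without it, so the sign for HSPB6 rests on that culture. AC002398.12, which overlaps HSPB6 over 923 bases, had between 5 and 18 reads.

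Of the 6 members, 1 was called higher (CRYAA) and 0 were called lower, where 4.12% of all tested genes were called, 3.11% higher and 1.01% lower. The median log2 fold change of the members was 0.35, with a range from -0.19 to 1.25, beside -0.01 over all tested genes. The groups were fully apart, with TGFβ on top, in 2 members, CRYAA and CRYAB, as in 10.4% of all tested genes. In 0 members they were fully apart with vehicle on top, against 8.23% of all tested genes. With the block 2 members were called higher, CRYAA and HSPB1, against a background of 8.08%. Since the members were chosen with this contrast known, nothing about the group is read from these counts. At an unadjusted P under 0.05, edgeR gave 1976 genes higher and 1131 lower over the whole table. CRYAA alone was called higher by DESeq2 (4.74% of all its genes higher) and by limma-voom (3.06%).

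**Figure D2:**
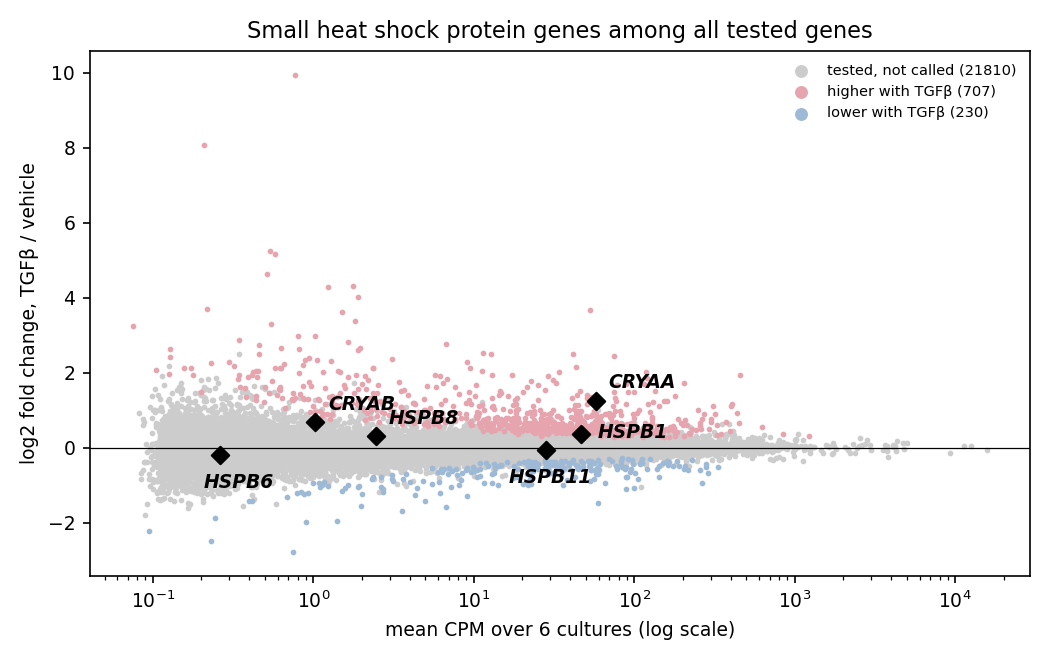
Fitted log2 fold change between TGFβ and vehicle (vertical axis) against mean CPM over the 6 cultures (horizontal axis, log scale) for all 22747 tested genes, with the small heat shock protein genes as black diamonds. CRYAA, at a log2 fold change of 1.25, lies among the genes called higher, and the other 5 lie among genes that were not called.

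Levels of different genes were compared on the RPKM values deposited by the authors, which are scaled by the coding length of each gene. With vehicle, the order was HSPB1 (20.5 ± 3.51 RPKM), CRYAA (15.5 ± 0.542), HSPB11 (7.31 ± 0.521), HSPB8 (0.636 ± 0.165), CRYAB (0.215 ± 0.0405) and HSPB6 (0.135 ± 0.0142), each as mean ± SD of 3 cultures. No neighbors in this order overlapped. CRYAA, a gene best known from the lens, thus stood above 86.5% of all tested genes in vehicle-treated HepG2 cells, and CRYAB above 16.9%. With TGFβ, CRYAA took the first place at 35.9 ± 1.24 RPKM, above HSPB1 at 26.0 ± 4.09 RPKM, again without overlap.

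HSPB11 followed at 6.88 ± 0.0459 RPKM, HSPB8 at 0.773 ± 0.0423, CRYAB at 0.339 ± 0.0684 and HSPB6 at 0.114 ± 0.0618. The RPKM ratio of CRYAA to HSPB1 was 0.766 ± 0.112 in vehicle cultures and 1.40 ± 0.256 in TGFβ cultures. CRYAA held 32.8%, 35.3% and 37.0% of the RPKM summed over the 6 members in the vehicle cultures, and 47.5%, 51.7% and 54.8% in the TGFβ cultures. The coding lengths are those of the table, 1821 bases for CRYAA, 1634 for HSPB1 and 3034 for CRYAB, and a length that includes exons not used in HepG2 cells lowers the RPKM of a gene.

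**Figure D3:**
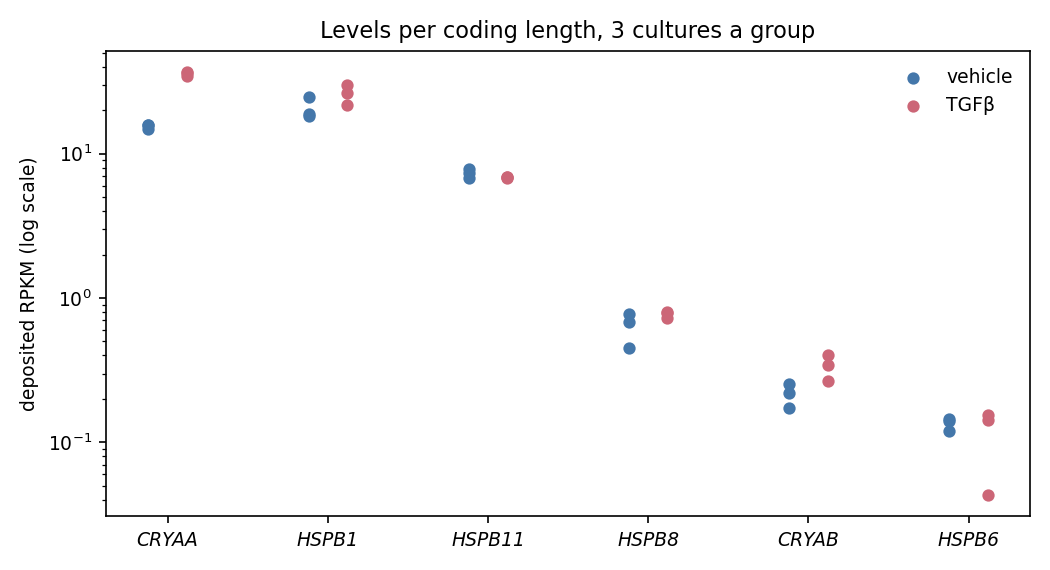
Deposited RPKM (vertical axis, log scale) of each small heat shock protein gene in 3 vehicle and 3 TGFβ cultures, 1 point a culture. CRYAA and HSPB1 exchange places between the groups, from 15.5 and 20.5 RPKM on average with vehicle to 35.9 and 26.0 RPKM with TGFβ.

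The remaining small heat shock protein genes had few reads. HSPB3, a muscle member, and ODF1, a protein of the sperm tail, had 0 reads in every culture, which allows up to 3 reads or between 0.0309 and 0.0487 CPM per culture. HSPB2, which lies within the span of CRYAB and shares bases with it, had between 10 and 22 reads. A log2 fold change of -0.18 was fitted (standard error 0.37, FDR 0.902). For HSPB9, a testis member with 3 to 16 reads, it was 0.29 (standard error 0.52, FDR 0.888). Neither was called by edgeR at an FDR under 0.05, where 4.12% of all tested genes were called. At an unadjusted P under 0.05, with DESeq2 or with limma-voom, 0 of them passed.

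HSPB7, a small heat shock protein of heart muscle, gave 2, 2 and 3 reads in vehicle cultures and 12, 10 and 15 reads in TGFβ cultures. All TGFβ cultures lay above all vehicle cultures, as in 10.4% of the tested genes, to which HSPB7 does not belong. No vehicle culture exceeded the 3 reads that a count of 0 allows. These reads were too few to pass the filter on low counts. Scaled for library size, its 37 reads in TGFβ cultures were 4.92 times its 7 reads in vehicle cultures, with an exact 95% interval of 2.16 to 13.1 for counting error alone. Without the filter, edgeR called it higher at a log2 fold change of 2.22 (FDR 0.0436), as it did 2.13% of the 39499 genes with reads. DESeq2 did not call HSPB7.

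Heat shock factors and the chaperones of the heat shock response were followed as a list of 27 genes, of which 26 were tested. DNAJB1, the HSP40 co-chaperone that is a classical heat shock gene, was called higher, and 0 genes were called lower. Over all tested genes, 3.11% were called higher and 1.01% lower. DNAJB1 had 199, 202 and 168 CPM with vehicle and 241, 258 and 252 CPM with TGFβ. The groups did not overlap, with TGFβ on top, as in 10.4% of all tested genes. The fitted log2 fold change was 0.40 (standard error 0.08, edgeR FDR 0.027), and the call was lost without any single culture, with FDR values from 0.0505 to 0.124, and with total-count scaling (FDR 0.0511).

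The median log2 fold change of the tested genes of this list was -0.04, and 9 of the 26 had a positive value, beside a median of -0.01 over all tested genes. HSP90AB1 and HSP90AA1, the cytosolic HSP90 chaperones, had log2 fold changes of -0.01 (standard error 0.07) and -0.02 (standard error 0.08), and the mitochondrial chaperonin HSPD1 had -0.05 (standard error 0.07). HSPA6, a strictly heat-inducible HSP70, had 5 reads over all 6 cultures. At an unadjusted P under 0.05, 1 gene of the list was higher and 3 were lower, beside 1976 and 1131 of the 22747 tested genes. DESeq2 and limma-voom each called DNAJB1 alone. With the block DNAJB1 stayed higher, while HSPA4L (log2 fold change -0.32, FDR 0.0333) and DNAJA1 (log2 fold change -0.19, FDR 0.0203), both HSP70 system genes, were lower, as were 3.75% of all tested genes in that fit. HSPA4L was also called lower without a filter, where 0.927% of the 39499 genes with reads were. HSPA1A and HSPA1B are near-identical copies whose reads can be split between them.

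Among 14 partners of HSPB8 and the BAG co-chaperones, 13 were tested and 0 were called by edgeR in either direction. Over all tested genes, 4.12% were called. VCP, SQSTM1 and BAG6 had log2 fold changes of 0.13 (standard error 0.07), 0.14 (standard error 0.12) and 0.03 (standard error 0.08), and the constitutive HSP70 gene HSPA8 had -0.04 (standard error 0.13). At an unadjusted P under 0.05, 1 gene of the list was higher, as were 1976 of the 22747 tested genes. DESeq2 and limma-voom called 0 genes of the list. With the block, BAG3 (log2 fold change 0.34, FDR 0.00257), which binds HSPB8, and DNAJB6 (log2 fold change 0.18, FDR 0.0432) were higher, 2 of the 13 tested genes where 8.08% of all tested genes were called higher in that fit. The median over the list was 0.05.

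Of the lens crystallins and lens genes, 11 of 24 had enough reads and 0 were called by edgeR, where 4.12% of all tested genes were. At an unadjusted P under 0.05, 2 were lower, as were 1131 of the 22747 tested genes. DESeq2 and limma-voom called 0. PROX1, a transcription factor that liver and lens share, had 113 ± 2.34 CPM with vehicle and 98.8 ± 6.55 CPM with TGFβ (SD, n = 3, log2 fold change -0.19, FDR 0.252, edgeR), and was called lower with the block (FDR 0.0471). In that fit 3.75% of all tested genes were called lower. MIP, the water channel of lens fibers, PAX6, a master regulator of eye development, and CRYGS had log2 fold changes of -0.26, 0.15 and -0.03 with FDR values of 0.725, 0.898 and 0.971. MAF, which encodes a MAF protein, had a log2 fold change of -0.75 and was not called. Whether MAF acts on CRYAA in these cells was not tested. The median log2 fold change of the 11 tested lens genes was -0.27, and 1 of them was positive. Over all tested genes the median was -0.01, and 49.0% were positive. Some of the lens genes had few reads, such as LIM2 with between 5 and 23 per culture.

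Among the markers of lens cells, CRYGD and CRYBB1 had 0 reads in all cultures. The summed level of the lens markers was between 4.10 and 5.15 CPM with vehicle and between 3.14 and 4.72 CPM with TGFβ, most of it from MIP. These ranges overlap. Muscle and fibroblast markers, which mark other cells rich in small heat shock proteins, were summed as well. The 8 muscle markers summed to between 41.6 and 43.6 CPM with vehicle and between 53.5 and 74.8 CPM with TGFβ, nearly all of it from ACTA1, skeletal α-actin, which was called higher (log2 fold change 0.62, standard error 0.12, edgeR FDR 0.0176, and 0.0686 to 0.0907 without single vehicle cultures). DES had 8 reads over all cultures and MYL2 had 0. The 7 fibroblast markers had between 13.7 and 15.0 CPM with vehicle and between 23.3 and 34.7 CPM with TGFβ. PDGFRB (log2 fold change 1.22, FDR 0.0582) and COL1A1 (log2 fold change 0.57, FDR 0.193) made up nearly all of it, and both were called higher with the block (FDR 7.25e-06 and 0.00806), while LUM had 2 reads and THY1 had 9 over all cultures. Over all tested genes, 3.11% were called higher in the reported fit and 8.08% with the block. The part of these markers in the values of the small heat shock protein genes was not tested.

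The intraflagellar transport B complex, to which HSPB11 belongs, was followed through 15 tested genes of 16 in the table. By edgeR, 0 were called, where 4.12% of all tested genes were, and 0 with DESeq2, limma-voom or the block. At an unadjusted P under 0.05, 1 was higher and 1 lower, beside 1976 and 1131 of the 22747 tested genes. IFT52 and TRAF3IP1 had log2 fold changes of 0.01 (standard error 0.07) and -0.02 (standard error 0.07). IFT27, the direct partner of HSPB11 in the complex, had 16 reads over all cultures. Of 16 genes for chaperones and stress regulators of the endoplasmic reticulum, all tested, XBP1 was called lower and 0 were called higher. Over all tested genes, 1.01% were called lower and 3.11% higher. XBP1, a transcription factor of the unfolded protein response, had 322 ± 6.57 CPM with vehicle and 241 ± 4.87 CPM with TGFβ (SD, n = 3), a fitted log2 difference of -0.42 (standard error 0.06, edgeR FDR 0.00557). The chaperones CALR, HSP90B1 and CANX had values between -0.02 and 0.01.

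**Figure D4:**
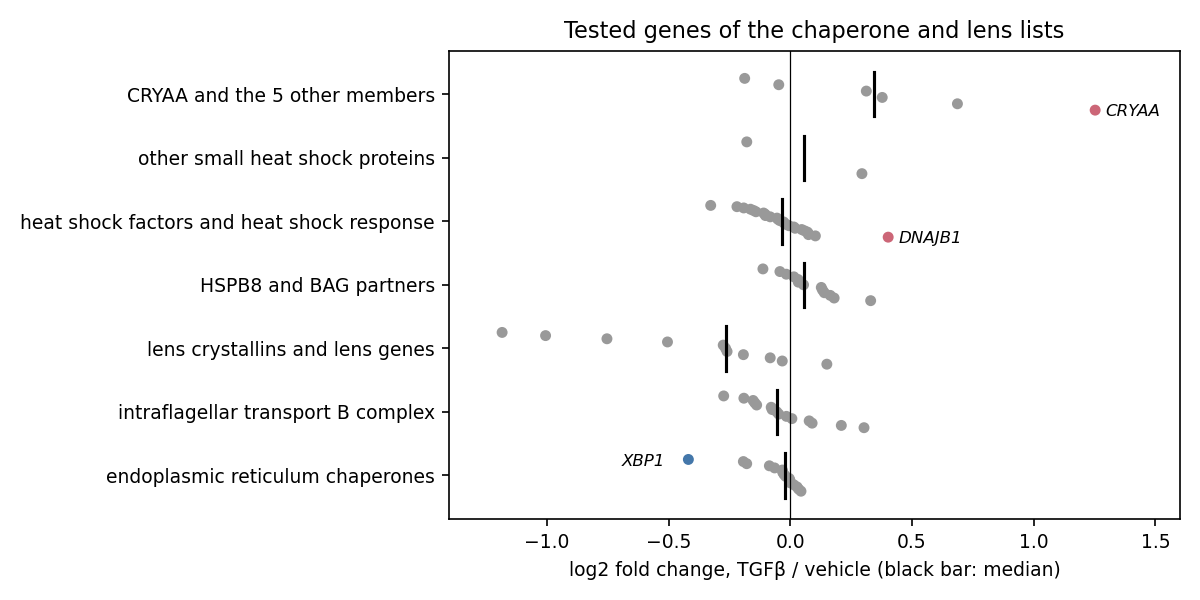
Fitted log2 fold change between TGFβ and vehicle (horizontal axis) of the tested genes of the 6 members and the 6 chaperone, lens and transport lists, 1 point a gene, without the treatment check and cell type markers, with the list median as a black bar, genes called higher in red and genes called lower in blue. CRYAA at 1.25, DNAJB1 at 0.40 and XBP1 at -0.42 are the called genes among those shown, and the other points are grey.

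The 5 tested genes whose log2 CPM followed that of CRYAA most closely over the 6 cultures were C12orf49 (Pearson's r = 0.999), MISP (r = 0.999), HOXC12 (r = 0.998), LMCD1 (r = 0.998) and PHYHIP (r = 0.998). These r values describe 6 libraries that fall into the 2 treatment groups, and mostly follow that split. All 5 were called higher, as were 3.11% of all tested genes. Picking genes that follow CRYAA over these cultures favors such calls, so they are no separate result. C12orf49 went from 99.5 ± 4.56 to 260 ± 9.11 CPM (SD, n = 3), a log2 fold change of 1.39, and LMCD1, a LIM domain protein, had 1.33. HOXC12, nearly silent with vehicle at 0.0302 CPM, reached 1.13 CPM with TGFβ.

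The fit was repeated under 13 alternative settings, and CRYAA passed the threshold in each, which describes a gene taken for its rise in these cultures and adds no support for that rise. Of the genes fitted in each, the share called higher was 3.1% with the size factors of DESeq2 and 2.8% with total-count scaling. It was 2.13% without a filter and 3.57% where each library needed 10 counts or more. It was 2.65%, 1.79% and 1.7% without vehicle replicate 1, 2 or 3, and 2.19%, 1.89% and 3.34% without TGFβ replicate 1, 2 or 3. HSPB1 was the only other member called in any of the 13, and the log2 fold changes of HSPB6 and HSPB11 had either sign.

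**Figure D5:**
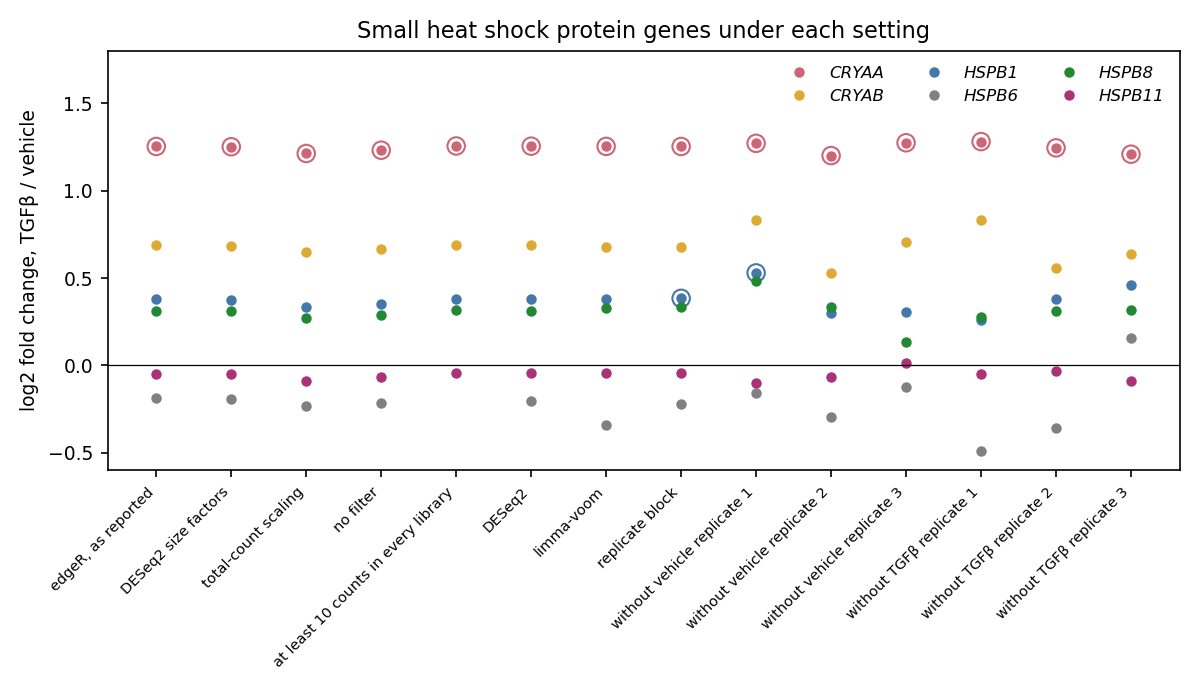
Log2 fold change between TGFβ and vehicle (vertical axis) of each small heat shock protein gene with the reported fit and under each alternative setting (horizontal axis), with rings around values at an FDR under 0.05. CRYAA lay between 1.20 and 1.28 and was ringed throughout, and HSPB1 was ringed with the replicate block and without vehicle replicate 1.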

How the data were processed

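RNA of HepG2 cultures (3 vehicle, 3 TGFβ) was sequenced by the authors as paired reads from TruSeq v2 libraries. The submitters' processing notes name TopHat2 2.0.6 and HTSeq, and the methods name MAPRseq for counting and hg19 as the genome. The authors deposited, per gene and culture, the raw count and the RPKM, scaled by a coding length. No source used here names the annotation release or the strand setting. Counts were used for all tests and the deposited RPKM only for levels between genes.

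Counts were analysed with edgeR 4.0.16 (limma 3.58.1, R 4.3.3) using TMM, filterByExpr and the robust quasi-likelihood test without a block. A standard error is the absolute log2 fold change over the square root of F. The steps were tested on simulated data. Cultures with the same number deviated together (correlations across genes of 0.366, 0.227 and 0.316, and at most 0.0101 for other pairs), so the numbers in the labels were taken to pair the cultures. The reported fit leaves this pairing out, and the fit with the block uses it. With the block 1837 genes were called higher, against 707 in the reported fit. A gene that the reported fit did not call may thus be called once the pairing is used. Cultures 1 and 2 shared a lane with their partners and cultures 3 did not. Replicates differed by more than counting noise.

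The members and lists were chosen with earlier results of these data known. Named genes are the members, the other small heat shock proteins, from each list the 4 called genes with the largest change or else the most abundant genes, known TGFβ targets (some listed genes are not reported here), the 5 genes most like CRYAA over the cultures, and genes overlapping or within 5000 bp of a member. Genes named for a low count, a call with the block, as marker, or for a promoter motif (MAF) were added after their values were seen. The alternatives tried were DESeq2 1.42.0, limma-voom, the block, each culture left out in turn, scaling by total counts or by DESeq2's size factors, and the filter either dropped or set to 10 counts or more in each culture. Promoters were matched to GRCh37 with pysam 0.24.0.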

Additional observations from a re-analysis of the deposited data

How the results depend on the processing

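The log2 fold change of CRYAA was between 1.20 and 1.28 when single cultures were left out, a description of a gene chosen for its rise in these cultures. Members called higher numbered 1 in the reported fit, 2 with the replicate block and between 1 and 2 without single cultures, and HSPB1 was the second. The block changed no other call of a member. CRYAB stayed between 0.53 and 0.83, HSPB8 between 0.13 and 0.48 and HSPB1 between 0.26 and 0.53 without single cultures, and the values of HSPB6 (-0.49 to 0.16) and HSPB11 (-0.10 to 0.01) changed sign. HSPB6 has no value with at least 10 counts in every library. Genes called higher over the whole table numbered 707 in the reported fit, 1837 with the block, and between 394 and 778 without single cultures, with 414 without vehicle replicate 2, 394 without vehicle replicate 3 and 439 without TGFβ replicate 2. Genes called lower numbered 230, 853 with the block, 366 without a filter, 380 with DESeq2, and between 91 and 220 without single cultures, with 104 and 91 without vehicle replicates 2 and 3 and 144 and 122 without TGFβ replicates 1 and 2. In the heat shock response list, genes called higher numbered 0 with total-count scaling and 0 without any single culture, and genes called lower numbered 1 without a filter (HSPA4L) and 2 with the block. In the list of other small heat shock proteins 1 gene (HSPB7) was called higher without a filter. With the block, 2 genes of the list of HSPB8 and BAG partners were higher and 1 lens gene was lower, as were the hepatocyte markers FGB (log2 fold change -0.22, FDR 0.0331) and TTR (-0.25, FDR 0.0495), and the fibroblast markers PDGFRB and COL1A1 were higher. The RPKM ratio of CRYAA to HSPB1 moved by less than its SD with CPM per coding length. Over 48 of the named genes, HSPB1 among them, 10 of 615 values lost a call and 6 gained one. Genes named only for a call with the block, such as HSPA4L and BAG3, were left out of this count. The cause of these changes was not tested. HSPB6, HSPB7 and CRYAB rest on at most 119 reads per culture.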

Other observations

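Chaperone families were also taken by symbol, a choice made after the lists were seen. Of 41 tested DNAJ genes, the HSP40 co-chaperones, 3 were called higher by edgeR and 0 lower, where 3.11% of all tested genes were called higher and 1.01% lower, with a median log2 fold change of 0.02. Beside DNAJB1 these were DNAJC6, auxilin, which uncoats clathrin vesicles, from 2.81 ± 0.210 to 4.33 ± 0.385 CPM (SD, n = 3, log2 fold change 0.62, FDR 0.0463), and DNAJC22, from 42.0 ± 3.11 to 56.6 ± 5.39 CPM (SD, n = 3, log2 fold change 0.43, FDR 0.0302). The median log2 fold change was -0.03 over 13 tested HSPA genes, -0.06 over 9 genes of the CCT chaperonin ring and -0.07 over 5 prefoldin genes.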
